A study of Triticum aestivum with 18 samples.

Results

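Across the first days of greenbug feeding, 48 probe sets of the wheat array reached their highest mean signal at 24 h in both a resistant and a susceptible wheat line and were lower again at 48 h. They were taken by rule from a table of 61290 probe sets, without using the 175 controls among them. The rule used group means of log2(signal + 16). It took probe sets with no gene symbol or only a LOC number as symbol whose largest group mean signal was 200 or more. In both lines the change from 0 h to 24 h had to be 0.7 or more, the change from 24 h to 48 h -0.5 or less, and the change from 0 h to 48 h under 0.7. All probe sets that met it were kept, since fewer than the 200 allowed did so. The members were thus selected on measured values, namely their changes between times, which are given as a description, without a test.

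The resistant line was TXGBE273 and the susceptible line its near-isogenic partner TXGBE281. Greenbug biotype E was put on greenhouse plants, and leaves at the 3-leaf stage were taken at 0 h, the control, and 24 h and 48 h later. Each of the 6 groups had 3 arrays, 18 in all, with total RNA hybridised in 1 colour. Whether replicates are separate plants is not in the labels, so p-values cover the spread between these samples, which may be technical. Uninfested plants of 24 h or 48 h were not analysed here, so infestation, plant age and time of sampling cannot be told apart. In whole leaves, fewer cells of a type and less RNA per cell cannot be told apart either.

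The greenbug is an aphid that feeds on cereal phloem and whose saliva damages leaf tissue. Plants under attack commonly switch on genes in waves, some transcripts appearing early and fading while the attack goes on and others staying high. A near-isogenic pair shares most of its genome apart from the region bred in for the trait.

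Only 3 of the 48 members carried a symbol, LOC778394 for a pair of them and LOC542812 for the third. The other 45 had none, and the sources used here give no role for either LOC gene, so no function is assigned to any member. The 48 names had 43 different stems, the part before the second dot, which on this array usually marks a cluster of related source sequences. Ta.21508 gave 3 members, and TaAffx.54121, Ta.6371 and Ta.6173 gave 2 each. Members of a stem, and the pair for LOC778394, may read the same transcript and are not independent. Names with the ending _x_at or _s_at, which mark probes that can match more than 1 transcript, made up 8 and 6 of the 48. The shares, 16.7% and 12.5%, compare with 16.6% and 6.80% of the 25706 probe sets that met the symbol and signal conditions. Of the members, 25% had TaAffx names, against 30.5% of those 25706. Wheat is hexaploid, and probes may hybridise to the related gene copies of all its subgenomes.

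Probe sets that were higher at 24 h in both lines were counted by where they stood at 48 h. Of the 25706, 3592 had a 24 h change of 0.7 or more in both lines, and the 48 members were 1.34% of these. A further 71 dropped by 0.5 or more in both lines by 48 h but stayed 0.7 or more above 0 h in at least 1 line. Taking each line alone, 334 of the 3592 dropped by 0.5 or more in resistant and 251 in susceptible leaves. The share of all probe sets with such a drop is not given here, so these counts are a description. By contrast 444 of the 3592 climbed by another 0.5 or more in both lines. The mirror image of the rule, a dip at 24 h in both lines, was met by 74 probe sets.

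The members with the largest 24 h changes were TaAffx.54121, LOC778394, Ta.21508, Ta.7773, Ta.6371 and Ta.30935 probe sets. TaAffx.54121.1.S1_at, first in rank, had resistant-line signals of 637, 790 and 586 at 0 h, 1926, 2314 and 1860 at 24 h, and 994, 909 and 952 at 48 h. In susceptible leaves its signals were 465, 529 and 539 at 0 h, 1481, 2324 and 1533 at 24 h, and 652, 890 and 591 at 48 h. In both lines its 24 h arrays stood clear of all others. Its 24 h changes were 1.58 ± 0.17 (SE) in resistant and 1.74 ± 0.17 in susceptible leaves on the log2 scale. The second probe set of that stem, TaAffx.54121.1.S1_x_at, had rank 3 with 1.52 and 1.57.

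Ta.21508 supplied the members of ranks 4, 6 and 7, and they did not return alike. Ta.21508.2.S1_x_at had signals of 897, 897 and 1069 at 0 h, 2966, 2648 and 3173 at 24 h, and 741, 767 and 1172 at 48 h in resistant leaves. In susceptible leaves they were 881, 992 and 1024, then 2282, 3650 and 2164, then 793, 891 and 636. Its 48 h arrays thus lay around the 0 h level in both lines, with changes from 0 h of -0.12 and -0.33. Ta.21508.3.S1_at stood at 0.57 and 0.26 above 0 h at 48 h, and Ta.21508.1.A1_a_at at 0.47 and 0.64.

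Ta.7773.1.S1_x_at had 24 h changes of 1.47 in resistant and 1.53 in susceptible leaves, followed by -1.14 and -1.17. Its signals at 24 h were 2179, 3454 and 2292 in resistant and 1920, 3129 and 1960 in susceptible leaves, 1 array of each line being well above the other two. Ta.6371.1.A1_at gave 1.31 and 1.49, and was still 0.65 and 0.59 above 0 h at 48 h, so it returned only partly. Ta.30935.1.S1_at gave 1.13 and 1.46, and Ta.21285.1.A1_s_at 1.23 and 1.22.

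**Figure D1:**
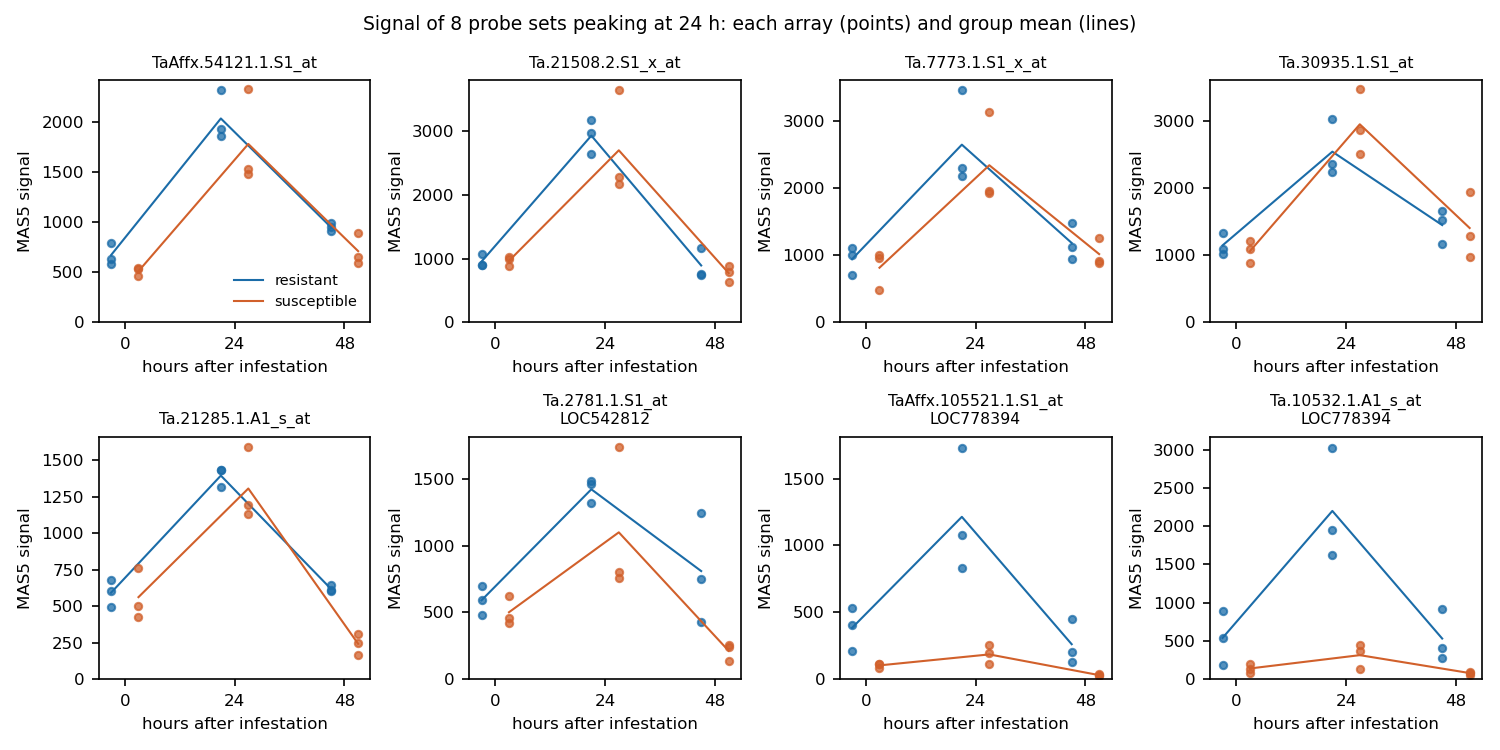
MAS5 signal (linear axis) against hours after infestation for 8 members in resistant and susceptible leaves; points are single arrays, offset sideways by line, and lines join group means of 3 arrays. All 8 have their highest mean at 24 h in both lines, and the 2 LOC778394 probe sets are far brighter in resistant leaves.

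The LOC778394 pair ranked second and fourteenth. Ta.10532.1.A1_s_at had resistant-line signals of 536, 891 and 185 at 0 h, 1955, 1620 and 3023 at 24 h, and 920, 270 and 400.0 at 48 h. In susceptible leaves they were 201, 129 and 85.8, then 365, 132 and 442, then 84.8, 98.2 and 53.4. The resistant 24 h arrays stood clear of the other times, whereas in susceptible leaves the 24 h and 0 h arrays overlapped. Its 24 h changes were 2.20 ± 0.50 (SE) and 1.0 ± 0.50, among the widest errors of the members. TaAffx.105521.1.S1_at had 1.65 ± 0.39 and 0.70 ± 0.39, the susceptible value lying 0.0012 inside the threshold. Its susceptible 24 h signals of 193, 109 and 251 also overlapped the 0 h signals of 115, 83.3 and 110.

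LOC542812, read by Ta.2781.1.S1_at, had resistant-line signals of 698, 593 and 484 at 0 h, 1322, 1489 and 1464 at 24 h, and 431, 755 and 1247 at 48 h. In susceptible leaves they were 423, 626 and 457, then 808, 1740 and 757, then 254, 244 and 139. The resistant 48 h arrays were widely spread, while the susceptible ones all lay below that line's 0 h arrays.

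Over all 48 members the median 24 h change was 1.07 (range 0.70 to 2.20) in resistant and 0.96 (0.70 to 1.74) in susceptible leaves. The same medians over all 46237 probe sets tested were -0.018 and -0.066. From 24 h to 48 h the members' medians were -0.83 in both lines, with lowest values of -2.25 and -2.39. The 24 h change was larger in resistant leaves for 27 members and in susceptible leaves for 21. On the deposited scale the 48 h drop was a median 80.5% of the 24 h change in resistant leaves (range 45.6% to 172%) and 81.4% in susceptible leaves (47.6% to 297%), on the log2 scale. The share depended on the scaling: on the scale of the hybridisation controls its medians were 60.3% in resistant and 38.5% in susceptible leaves.

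The members parted in where they ended. At 48 h the mean was above 0 h in both lines for 26 members and below it in both for 6. It was above in resistant and below in susceptible leaves for 11, and the reverse for 5. A 48 h mean 0.5 or more under 0 h was found for 2 members in resistant leaves, TaAffx.105521.1.S1_at (-0.60) and Ta.19627.1.S1_at (-0.59). In susceptible leaves there were 7 such members, which included both LOC778394 probe sets, LOC542812 (-1.20) and Ta.21285.1.A1_s_at (-1.17). Another 3, TaAffx.83146.1.S1_s_at (-1.47), Ta.28255.1.A1_at (-1.13) and Ta.29424.1.A1_a_at (-0.53), were named after their values were seen. The rule set no lower bound on this change.

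**Figure D2:**
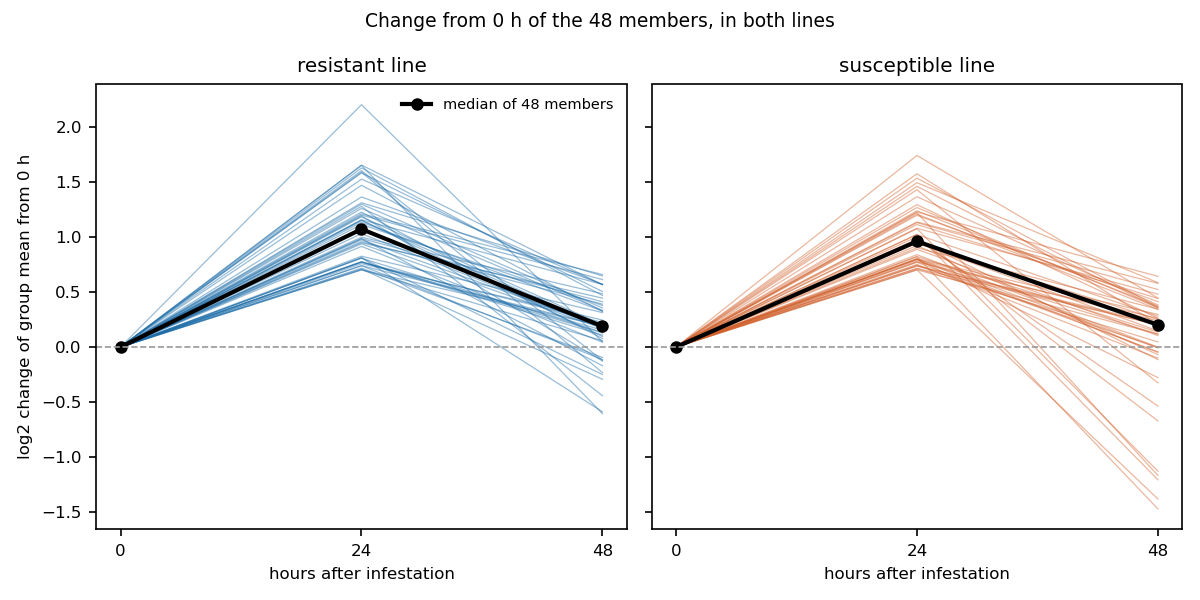
Log2 change of the group mean from 0 h (vertical axis) at 0, 24 and 48 h after infestation for the 48 members, in resistant leaves at left and the susceptible line at right; thin lines are members and the black line their median. The medians are 1.07 and 0.96 at 24 h and 0.19 and 0.20 at 48 h, and the lowest 48 h lines reach -0.60 in resistant and -1.47 in susceptible leaves.

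Separation of single arrays varied among members. In resistant leaves the 3 arrays at 24 h were all above the 3 at 0 h for 44 members (22.4% of all tested probe sets) and all above the 3 at 48 h for 43 (12.7%). In susceptible leaves these numbers were 42 (21% of all tested) and 45 (16.4%). For 35 members both separations held in both lines, against 2.34% of all tested probe sets, and since the rule used these contrasts nothing is read from these counts. The 13 others included both LOC778394 probe sets, whose overlap was in susceptible leaves.

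Several members lay close to the rule's edge. The least margin was 0.00084 for TaAffx.108480.1.S1_at, 0.0011 for TaAffx.129569.1.S1_s_at and 0.0012 for TaAffx.105521.1.S1_at, on the log2 scale. The members of lowest rank, Ta.7893.1.S1_at, Ta.7820.1.S1_at and Ta.10867.1.S1_at, had mean 24 h changes of 0.78, 0.76 and 0.76 over the lines. Just outside were Ta.8320.3.S1_at, with 0.70 rounded but short of the threshold in resistant leaves, Ta.810.2.S1_a_at, with a susceptible drop of -0.50, and Ta.6605.1.S1_at, left at 0.71 in resistant leaves at 48 h. Within 0.1 of the edge there were 31 members inside and 99 probe sets outside, so the list is a slice of a continuous range.

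The rule set the same thresholds for both lines. Line differences at each time were tested in one limma model over all 46237 probe sets, with Benjamini-Hochberg adjustment over all of them. "Called" means an adjusted p under 0.05. All 48 members passed the filter on low signals. Since both lines had to show the same shape, the rule limits how far the lines can differ in their changes over time. The signal condition was met in both lines by 44 members and in 1 line only by 4. TaAffx.105521.1.S1_at was by far the most uneven of these, with a largest group mean of 1214 in resistant leaves, against 185 in susceptible leaves. The signal condition therefore favoured its being higher in resistant leaves, and its line differences are given as a description, with no test read from them. Counts over all 48 members still include it, so counts over the 44 are given beside them at each time.

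Before infestation no member was called between the lines, with 0.0216% of all tested probe sets called. At an unadjusted limma p under 0.05 there were 8 members, or 16.7%, against 6.88% of all tested. Among the 44 that met the signal condition in both lines, 7 had such a p and 0 were called. The LOC778394 probe sets had the largest differences at 0 h. Ta.10532.1.A1_s_at differed by 1.66 (95% interval 0.60 to 2.71, limma adjusted p = 0.463) and TaAffx.105521.1.S1_at by 1.67.

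At 24 h, the time of the peak, 3 members were called, 6.25% of the 48, against 5.15% of all tested probe sets. Of the 44 that met the signal condition in both lines, 2 were called. Ta.10532.1.A1_s_at was higher in resistant leaves by 2.86 ± 0.50 (SE, limma adjusted p = 0.0012), and the difference for TaAffx.105521.1.S1_at was 2.62 ± 0.39 (SE). At that time their mean signals were 2199 ± 732 and 1214 ± 463 in resistant leaves, against 313 ± 161 and 185 ± 71.6 in susceptible leaves (SD, n = 3). For Ta.10532.1.A1_s_at the 3 resistant arrays lay above the 3 susceptible arrays. TaAffx.110686.3.S1_s_at, the brightest member, was lower in resistant leaves by limma, at -0.54 ± 0.13 (adjusted p = 0.0143). Its 24 h signals were 5685, 5863 and 5160 in resistant leaves, against 7949, 8397 and 7924 in susceptible leaves, without overlap. That limma call was lost without resistant 24 h replicate 3 (-0.49, adjusted p = 0.0794), on the hybridisation control scale (-0.38, adjusted p = 0.363) and without the variance trend (adjusted p = 0.0773).

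At 48 h, after the return, 8 members were called, 16.7% against 12.1% of all tested probe sets. In resistant leaves 5 were higher (10.4% against 6.69%) and 3 lower (6.25% against 5.39%). Of the 44 that met the signal condition in both lines, 7 were called. These shares are near the background, so the peaking probe sets are not set apart by them.

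Higher in resistant leaves at 48 h were the LOC778394 pair, LOC542812, Ta.21285.1.A1_s_at and Ta.7604.1.S1_a_at. Ta.10532.1.A1_s_at for LOC778394 differed by 2.37 ± 0.50 (SE, limma adjusted p = 0.00304). It was thus higher in resistant leaves at both infested times, and its value before infestation was also higher there, by 1.66, without a call. TaAffx.105521.1.S1_at, whose susceptible 48 h signals were 36.7, 28.6 and 23.4, had a difference whose size followed the offset. It was 2.93 with an offset of 1, 2.45 with 16 and 1.68 with 64. Ta.2781.1.S1_at for LOC542812 averaged 811 ± 411 in resistant leaves and 212 ± 63.5 in susceptible leaves (SD, n = 3), a limma difference of 1.77 ± 0.32 (SE, adjusted p = 0.00079). Ta.21285.1.A1_s_at had 604, 643 and 614 in resistant leaves, against 249, 312 and 164 in susceptible leaves. Its limma difference was 1.35 ± 0.21 (adjusted p = 0.00019), without overlap of arrays, while at 24 h the value was 0.11 ± 0.21 (adjusted p = 0.890).

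Ta.7604.1.S1_a_at was called at 0.39 ± 0.10 (limma adjusted p = 0.0115). Its susceptible signals at 48 h, 3601, 3761 and 3417, lay around that line's 0 h signals of 3593, 3466 and 3721. The resistant ones at 48 h, 5019, 5206 and 3969, were still above the 0 h signals of 3528, 3522 and 3302. The call was lost without resistant 48 h replicate 2 (0.31) or susceptible 48 h replicate 3 (0.35), and on the hybridisation control scale, where the difference was 0.084. It was also lost without the variance trend (limma adjusted p = 0.0586) and with the compared arrays alone (adjusted p = 0.0574).

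Lower in resistant leaves at 48 h were TaAffx.110686.3.S1_s_at, Ta.21508.1.A1_a_at and Ta.19627.1.S1_at. TaAffx.110686.3.S1_s_at differed by -0.65 ± 0.13 (limma adjusted p = 0.00166), as at 24 h. Ta.19627.1.S1_at had 115, 53.4 and 103 in resistant leaves, against 173, 263 and 257 in susceptible leaves, and differed by -1.25 ± 0.26 (limma adjusted p = 0.00289). The size of this difference also followed the offset, at -1.39 with an offset of 1 and -0.94 with 64. Ta.21508.1.A1_a_at differed by -0.44 ± 0.12 (adjusted p = 0.0158). Leaving out resistant 48 h replicate 2 (-0.39) or susceptible 48 h replicate 3 (-0.40) ended the call. Of the other Ta.21508 members, Ta.21508.2.S1_x_at had 0.19 and Ta.21508.3.S1_at 0.40 at 48 h, neither called, so the 3 did not share a direction.

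**Figure D3:**
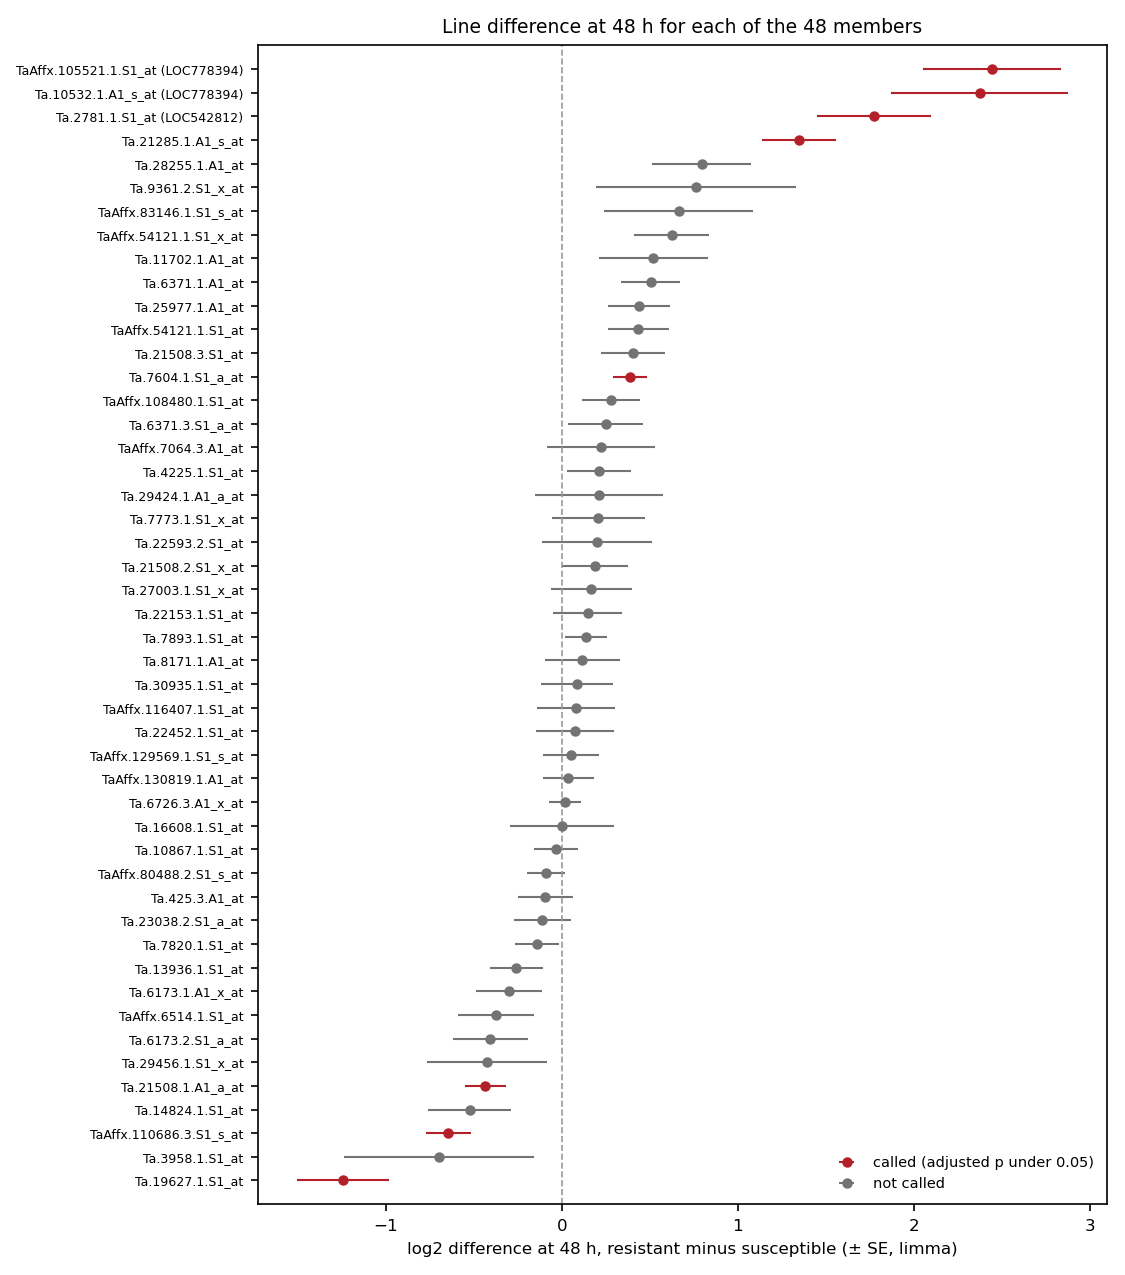
Log2 difference between lines at 48 h (resistant minus susceptible, horizontal axis, points with SE bars from limma) for each of the 48 members, sorted; red marks the 8 called. The LOC778394 pair and LOC542812 (1.77) are at the top, where the order of the LOC778394 pair changes with the offset added before the log, and Ta.19627.1.S1_at at -1.25 at the bottom.

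The height of the peak and the depth of the return were also set side by side as changes of changes. The rule selected on these same changes in each line, so nothing is read from the members' counts against the background. For the 24 h change 0 members were called by limma, with 1.6% of all tested probe sets called, and 2 members (4.17% against 11.9%) had an unadjusted p under 0.05. For the change from 24 h to 48 h 0 members were called by limma, with 0.0433% of all tested probe sets called, and 5 members (10.4% against 6.97%) had an unadjusted p under 0.05. As a description, Ta.10532.1.A1_s_at had the largest difference in the 24 h change, 1.20 on the log2 scale. The log2 change of Ta.21285.1.A1_s_at from 24 h to 48 h was -1.15 in resistant and -2.39 in susceptible leaves, and that of LOC542812 was -0.93 and -2.23.

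A second readout came from other probe sets with the same name stem, which the rule had not taken. There were 39 tested on 22 of the 43 stems. Of these, 22 had a higher 24 h mean than 0 h and a lower 48 h than 24 h mean in both lines, 56.4% against 15.5% of all tested probe sets. Their median 24 h changes were 0.62 in resistant and 0.43 in susceptible leaves, followed by -0.42 and -0.34. Such probe sets can share source sequence with the members, and all use the same arrays, so this is a description.

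Among these mates, Ta.21508.1.A1_at gave 24 h changes of 0.77 and 0.36, followed by -0.95 and -0.91 in resistant and susceptible leaves. Ta.21285.1.A1_at gave 0.66 and 0.75, followed by -1.60 and -1.41. Ta.6371.2.S1_x_at gave 1.82 and 1.68 but was still 1.39 and 0.93 above 0 h at 48 h, so it stayed high. TaAffx.110686.1.S1_at (-0.04 and 0.43) and TaAffx.110686.2.S1_at (0.26 and 0.32) had smaller values at 24 h. The remaining mate of the TaAffx.110686 member of rank 29, TaAffx.110686.3.S1_x_at, gave 1.06 and 1.36 and was lower in resistant leaves by values that missed the threshold, -0.50 at 24 h (limma adjusted p = 0.212) and -0.57 at 48 h (adjusted p = 0.0773). The resistant minus susceptible difference of the Ta.21285.1.A1_at signal at 48 h was 0.07 (limma adjusted p = 0.935), unlike the 1.35 of its mate Ta.21285.1.A1_s_at.

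**Figure D4:**
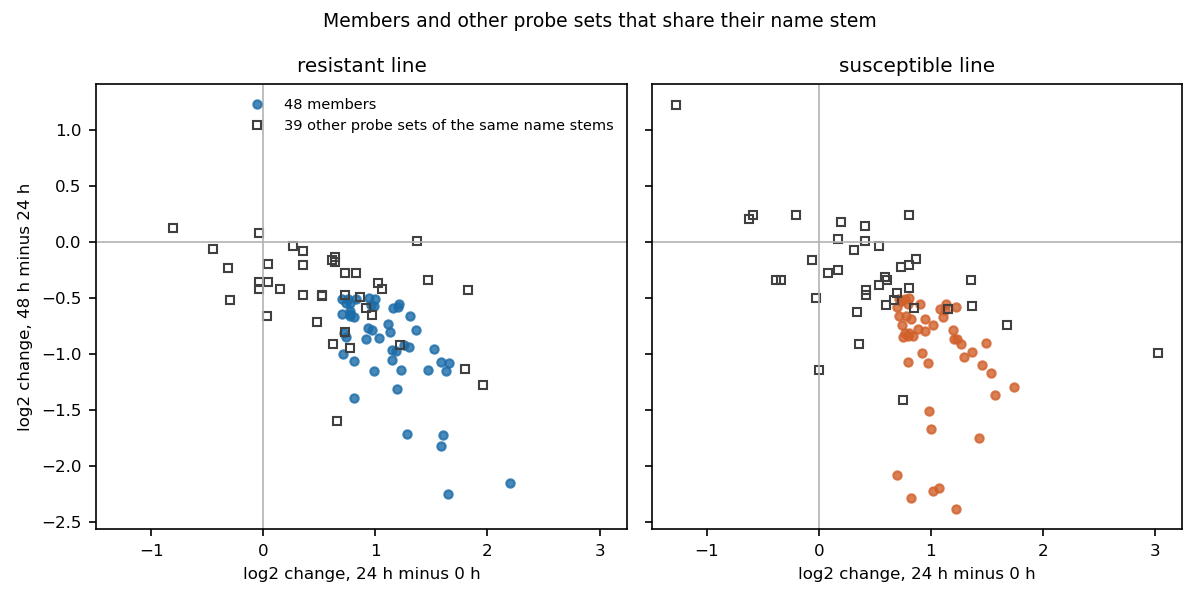
Log2 change from 24 h to 48 h (vertical axis) against log2 change from 0 h to 24 h (horizontal axis) for the 48 members (filled circles) and 39 other tested probe sets of their name stems (open squares), in resistant leaves at left and the susceptible line at right. Most squares lie in the lower right part beside the members, and 22 of 39 do so in both lines.

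Of 163 tested probe sets of wheat genes with a name, 8 were bright enough and 0.7 or more higher at 24 h in both lines, and 0 met all the thresholds. The rule took 0.187% of the 25706 probe sets open to it, so a count of 0 among so few sets nothing apart. On a defence list of 10 probe sets, 4 had a 24 h change of 0.7 or more in both lines, against 9.08% of all tested probe sets. These were WZF1, both XIP-I probe sets and PR5. The lists were taken from symbols known from earlier results of these data, so nothing is read from that share. PR5, a thaumatin-like pathogenesis-related gene, had 24 h changes of 3.24 and 3.66 and kept 2.82 and 3.73 at 48 h. XIP-I, a xylanase inhibitor gene, was still higher at 48 h, its first probe set having 1.33 and 1.63 at 24 h and 1.70 and 1.88 at 48 h. The lines parted for TaGlu1a with 24 h changes of 0.83 and -2.77, and for WSZ2a, with -0.27 and 1.01. The remaining 4, COMT1, 1-FEH and a pair for Glc1, had 24 h changes of 0.13 to 0.64 in resistant and 0.33 to 0.89 in susceptible leaves. The other lists had no probe set that met the thresholds: 28 tested for photosynthesis and carbon fixation, 13 for redox enzymes and 9 for translation and chromatin. A higher mean at 24 h than at 0 h and a lower one at 48 h than at 24 h, of any size and in both lines, was found for 1 defence, 1 photosynthesis, 0 redox and 3 translation and chromatin probe sets.

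The members were chosen for being high at 24 h on these arrays, so their medians per array are a description of how evenly single arrays carried the shape. After subtracting each member's mean over the 18 arrays, the median of the members was 0.58 to 0.71 on the 3 resistant and 0.53 to 0.81 on the 3 susceptible arrays at 24 h. On the other 12 arrays it lay between -0.49 and -0.084. The median of all tested probe sets stayed between -0.025 and 0.088. The 9 hybridisation controls were high at 0 h, at 0.18 to 0.60, and between -0.66 and 0.12 on the infested arrays. Scaled on them, all 48 members still had their highest mean at 24 h in both lines, but only 9 met the rule, since 39 then stood 0.7 or more above 0 h at 48 h in at least 1 line.

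**Figure D5:**
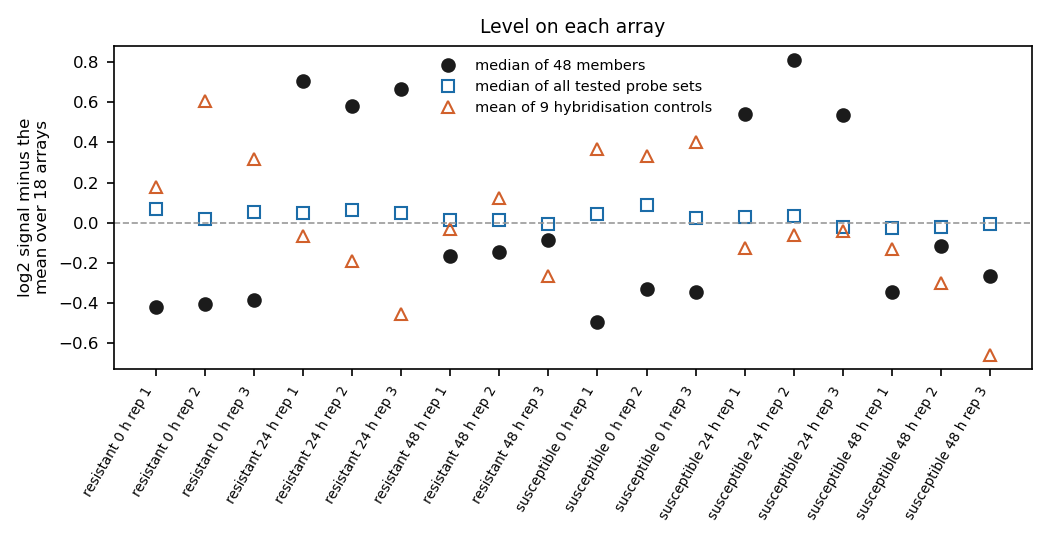
Log2 signal minus its mean over the 18 arrays (vertical axis) for each array along the horizontal axis: the median of the 48 members (black circles), the median of all tested probe sets (open squares) and the mean of 9 hybridisation controls (open triangles). The 6 arrays at 24 h are the only ones with a member median above 0, at 0.53 to 0.81.

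Markers of leaf mesophyll (26 tested probe sets of PsbP, PsbO, petC, rbcL and PRK) ranged from very bright to dim. In resistant leaves at 0 h the mean signal ran from 5.09 for a petC probe set to 86858 for an rbcL probe set. The sum therefore mainly reads the brightest probe sets, and some dim ones did not follow it. The summed signal of the 26 ran from 463080 to 545640 at 0 h, 244940 to 288030 at 24 h and 237710 to 289020 at 48 h in resistant leaves. In susceptible leaves it ran from 401100 to 450100, then 210130 to 251660, then 180400 to 208510, so the sum was lower at both infested times and did not peak at 24 h. The 2 probe sets of the cuticle marker LTP3 summed to 9473 to 11368 in resistant and 9490 to 9858 in susceptible leaves at 24 h. The sums were 9749 to 11551 and 9690 to 10466 at 0 h, and 10532 to 13163 and 10946 to 14529 at 48 h. The 4 probe sets for dividing cells (H2A-3, tubb2 and Tubb4) did not move together. The tubulin gene tubb2 had mean signals of 1457, 5077 and 3583 at 0, 24 and 48 h in resistant leaves and 1443, 5381 and 5486 in susceptible leaves, so it was highest at 24 h in resistant leaves. Tubb4 had 8221, 5367 and 5329 in resistant leaves and 8151, 4996 and 4577 in susceptible leaves. The sum of the 4 was 9488 to 10989, then 10639 to 11123, then 8034 to 10437 in resistant leaves, and 9812 to 11088, then 10017 to 11828, then 10003 to 11479 in susceptible leaves. LMGli2482, a gliadin-type grain gene, was taken as a marker that a leaf sample should lack. Its 2 probe sets summed to at most 54.3 in resistant and 382 in susceptible leaves at 24 h. At 48 h the sum was 51.4 to 706 in resistant and 1910 to 4819 in susceptible leaves, so the marker was not absent there. The part of these markers in the members' changes was not tested.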

How the data were processed

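The authors deposited 1 table of probe-set signal intensity on a linear scale, made with MAS5 per the submitters' processing notes, which give no version. Every array had the same mean of 500.1 with 2% of probe sets trimmed at each end. Analysis used log2(signal + 16) of the deposited intensity without further scaling. The offset understates changes of dim probe sets. Control probe sets (175) were left out. Probe sets above the array's 40th percentile on at least 3 arrays were tested, which kept 46237. One limma 3.58.1 model (R 4.3.3) with 6 groups and a variance trend gave all values. It was tested on simulated data.

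Symbols came from the old platform annotation (1273 probe sets with 1 symbol, several for 0). Of these, 1272 matched the IWGSC CS RefSeq v2.1 gene table, whose synonyms supplied names. Coordinates and sequences are not used here. Members, gene lists and tests were chosen with earlier results of these data known. Named are the 10 members of highest and the 3 of lowest rank, LOC members, members called between lines, 3 probe sets just outside and 5 name-stem mates. Other names were chosen after their values were seen. Precision is limited by having 3 arrays a group. Alternatives were other scalings, offsets, filters, variance models, array weights, arrays compared only, a replicate block and each array left out.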

Additional observations from a re-analysis of the deposited data

How the results depend on the processing

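Both the membership and the number of members called between lines at 24 h and 48 h changed with the processing. The rule found 77 probe sets after median centring, 32 of them among the 48, a scale on which the median 24 h changes of all tested probe sets were 0.17 in resistant and 0.18 in susceptible leaves. It found 45 after quantile normalization (36 shared), 56 on the hybridisation control scale (9 shared), 55 with an offset of 1 (48 shared) and 33 with an offset of 64 (29 shared). On the hybridisation control scale the median 24 h changes of all tested probe sets were 0.50 and 0.31. With each array left out in turn it found 39 to 56, and 11 of the 48 members were found in all 18 such sets. Only Ta.21508.2.S1_x_at and Ta.21285.1.A1_s_at met the rule in all 5 other scalings and offsets and all 18 sets. The largest loss, 12 members, came without susceptible 0 h replicate 1.

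Members called between lines numbered 2 to 4 at 24 h and 6 to 11 at 48 h with each array left out, and 0 throughout at 0 h and in both line by time comparisons. Of 319 values recomputed for called members, 309 kept direction and call, 10 kept direction without the call and 0 reversed. The 10 were of TaAffx.110686.3.S1_s_at at 24 h and Ta.7604.1.S1_a_at and Ta.21508.1.A1_a_at at 48 h. The recomputed values were picked for having been called and reuse the same arrays, so their counts are a description. They include TaAffx.105521.1.S1_at at 24 h and 48 h, as do the numbers of members called. No test is read from its line differences, and no such count without it is given here. With the replicate number as a block, 10 members were called at 48 h, against 8. Same-numbered arrays had deviations from their group means that correlated only between -0.035 and 0.061. Little deviation was thus shared by number, but such values cannot decide whether the samples were paired by design.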

Other observations

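One probe set that shares a name stem with a member stood out in size and was named after its values were seen. Ta.22593.1.A1_at gave resistant-line signals of 1943, 2072 and 1860, then 7496, 6086 and 7082, then 4559, 2973 and 2225 at 0, 24 and 48 h. Susceptible leaves gave 1476, 2004 and 1630, then 14936, 11018 and 16246, then 6839, 6648 and 7397. Its log2 changes at 24 h were 1.80 and 3.03, followed by -1.14 and -1.0, so it dropped back in both lines but kept 2.03 at 48 h in susceptible leaves and was no member. The 3 arrays of each line did not overlap at 24 h or at 48 h. The member of this stem, Ta.22593.2.S1_at, had smaller 24 h changes of 1.15 and 0.71.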
